A study of Mus musculus with 8 samples.

Results

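The genes described here code for the collagens, nidogens and perlecan of the vascular basement membrane, with fibronectin and the matricellular protein SPARC. They were chosen by name as Col4a1, Col4a2, Col15a1, Col18a1, Nid1, Nid2, Hspg2, Fn1 and Sparc, and every array probe whose accession maps to one of them was followed. The choice was made with earlier results of these data known. Counts of these genes set beside the shares over all genes are therefore a description and not a test. That gave 9 of 21939 genes tested and 16 of 39429 probes on the array. The samples were microvessels of mouse forebrain at postnatal day 5 (P5), postnatal day 10 (P10) and adulthood, enriched by homogenisation, density sedimentation and a filtration step that let through particles under 70 µm. Each of 8 two-colour Agilent arrays compared 2 ages, and each of 2 replicates filled the 4 arrays of 1 slide. On these, adult RNA was set against P5 RNA once and against P10 RNA on 2 arrays of opposite dye, and P10 RNA was set against P5 RNA once. All samples were untreated as far as the labels say; strain, sex, the age of the adults in days and the number of animals per preparation are not given in the sources used here. Nothing says that the replicates came from separate animals, so p-values measure the spread between 2 replicates, which may be technical.

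The basement membrane is a thin sheet of extracellular matrix that wraps the endothelium and embeds pericytes. Its type IV collagen network and its laminin network are held together by nidogens and by perlecan, a large heparan sulphate proteoglycan. In brain vessels it lies between the endothelium, the mural cells and the endfeet of astrocytes, and mutations of the main type IV collagen chains are known to make small brain vessels fragile in mice and humans. Fibronectin is deposited around growing vessels, and SPARC binds collagens and is made in large amounts by remodelling tissue.

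The marker genes of the labelled tissue were present, since 13 of 13 endothelial markers were well above background in at least 1 channel at every age. That also held for the measured markers of neurons, astrocytes, oligodendrocytes and microglia, so it does not set the tissue apart. In bulk RNA, fewer cells of a type and less RNA per cell cannot be told apart. Between 65.2% and 73.3% of spots were well above background in a channel, and the number of arrays limits the precision. The ratios of the dye-exchanged pair correlated at -0.88 in replicate 1 and -0.92 in replicate 2 over all genes. P5 RNA carried Cy5 on every array that held it, so each value involving P5 rests on the dye effect estimated from the exchanged P10 and adult pair.

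Col4a1 and Col4a2 lie head to head, and their promoters are shown first because both genes were highest at P10 in both replicates. The windows come from RefSeq (GRCm38.p6) and run from 250 bases before to 50 bases after the transcript start that the table uses for a gene, which may not be the gene's outermost start. The Col4a1 window is chr8:11312777-11313076 on the minus strand, the Col4a2 window is chr8:11312555-11312854 on the plus strand, and the transcript starts used lie 21 bases apart. Capitals mark the 78 bases that both windows hold, each read 5′ to 3′ on its own gene's strand.
Col4a1 promoter: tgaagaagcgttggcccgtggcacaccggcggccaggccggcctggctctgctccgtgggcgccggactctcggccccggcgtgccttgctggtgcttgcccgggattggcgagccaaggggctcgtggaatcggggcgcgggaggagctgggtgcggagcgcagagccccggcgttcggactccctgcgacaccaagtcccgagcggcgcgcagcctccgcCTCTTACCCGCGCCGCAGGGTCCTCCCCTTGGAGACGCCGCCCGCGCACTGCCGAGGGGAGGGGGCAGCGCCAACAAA
Col4a2 promoter: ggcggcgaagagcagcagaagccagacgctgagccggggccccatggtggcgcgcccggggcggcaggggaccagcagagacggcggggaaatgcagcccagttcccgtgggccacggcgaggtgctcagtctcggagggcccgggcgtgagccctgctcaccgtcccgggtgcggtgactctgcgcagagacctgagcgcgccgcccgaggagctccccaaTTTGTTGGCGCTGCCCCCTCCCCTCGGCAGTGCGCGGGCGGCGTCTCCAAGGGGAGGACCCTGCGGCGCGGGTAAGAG
The windows of Nid1, chr13:13437352-13437651 on the plus strand, and Col18a1, chr10:77166481-77166780 on the minus strand, are shown because, beside Col4a1, these genes stood highest at P10 over the mean of the other ages. Here capitals mark the GC box letters GGGCGG on either strand.
Nid1 promoter: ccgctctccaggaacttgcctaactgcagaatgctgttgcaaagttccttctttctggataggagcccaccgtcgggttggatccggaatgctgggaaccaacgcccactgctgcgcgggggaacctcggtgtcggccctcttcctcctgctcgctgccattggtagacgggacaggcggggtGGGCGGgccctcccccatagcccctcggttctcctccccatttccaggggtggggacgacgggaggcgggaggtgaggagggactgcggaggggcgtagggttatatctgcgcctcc
Col18a1 promoter: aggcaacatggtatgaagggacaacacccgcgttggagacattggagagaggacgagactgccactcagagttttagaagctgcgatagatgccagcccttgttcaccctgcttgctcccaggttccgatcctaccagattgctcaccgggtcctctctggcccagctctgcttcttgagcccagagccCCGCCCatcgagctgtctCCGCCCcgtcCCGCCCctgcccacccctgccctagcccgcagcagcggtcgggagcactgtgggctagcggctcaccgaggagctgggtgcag
A window was found for 7 of the 9 genes, with 2 for Col18a1, so 8 windows were searched on both strands. GGGCGG was found in 5 of the 8 windows and in 35.7% of the 32851 mouse promoter windows of the same length. CCAAT was found in 4 of 8 windows, those of Col4a1, Col4a2, Nid1 and the Col18a1 window printed above, against 37.4% of all windows. TATAAA was found in 0 of 8, against 13.6% of all. The Col4a1 and Col4a2 windows held 37 and 33 CG dinucleotides, whereas those of Col15a1 and Sparc held 8 and 4, and the median window held 7. The Col4a1 and Col4a2 windows share bases, so they are not independent. None of the 3 motifs contains another, and a match is only a match of letters.

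Most of these basement membrane genes had their highest fitted level at P10. In both replicates 8 of the 9 had their highest fitted level at P10, against 15% of all 21939 genes. The exception, Col15a1, was highest at P5 in replicate 1 and at P10 in replicate 2. When P10 was set against the mean of P5 and adult, 8 of 9 genes were higher at P10 and 0 were lower with limma (a moderated linear model fitted across all genes) at an adjusted p under 0.05, where 6.16% of all genes were called higher and 5.53% lower. The median difference of the 9 genes was 1.09 on the log2 scale, against -0.05 for all genes. None of the 8 calls held when the background correction was fitted on all spots, as described below. The call of Hspg2 held in 6 of 11 alternatives. In adult minus P10, 6 of 9 genes were lower and 0 higher, where 8.42% of all genes were called lower and 9.1% higher, and the 9 genes had a median difference of -1.46 against -0.01 for all genes. In P10 minus P5, 6 of 9 genes were higher and 0 lower, where 18.2% of all genes were called higher and 23% lower, with a median of 1.04 against -0.06. These 3 comparisons share the P10 samples and are given side by side. A gene that is low at only 1 of the other ages can pass in P10 against their mean. Col4a1, Col4a2, Col18a1 and Nid1 were called both in adult minus P10 and in P10 minus P5. Fn1 and Sparc were not called in adult minus P10, Nid2 and Hspg2 were not called in P10 minus P5, and Col15a1 was called in neither.

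**Figure D1:**
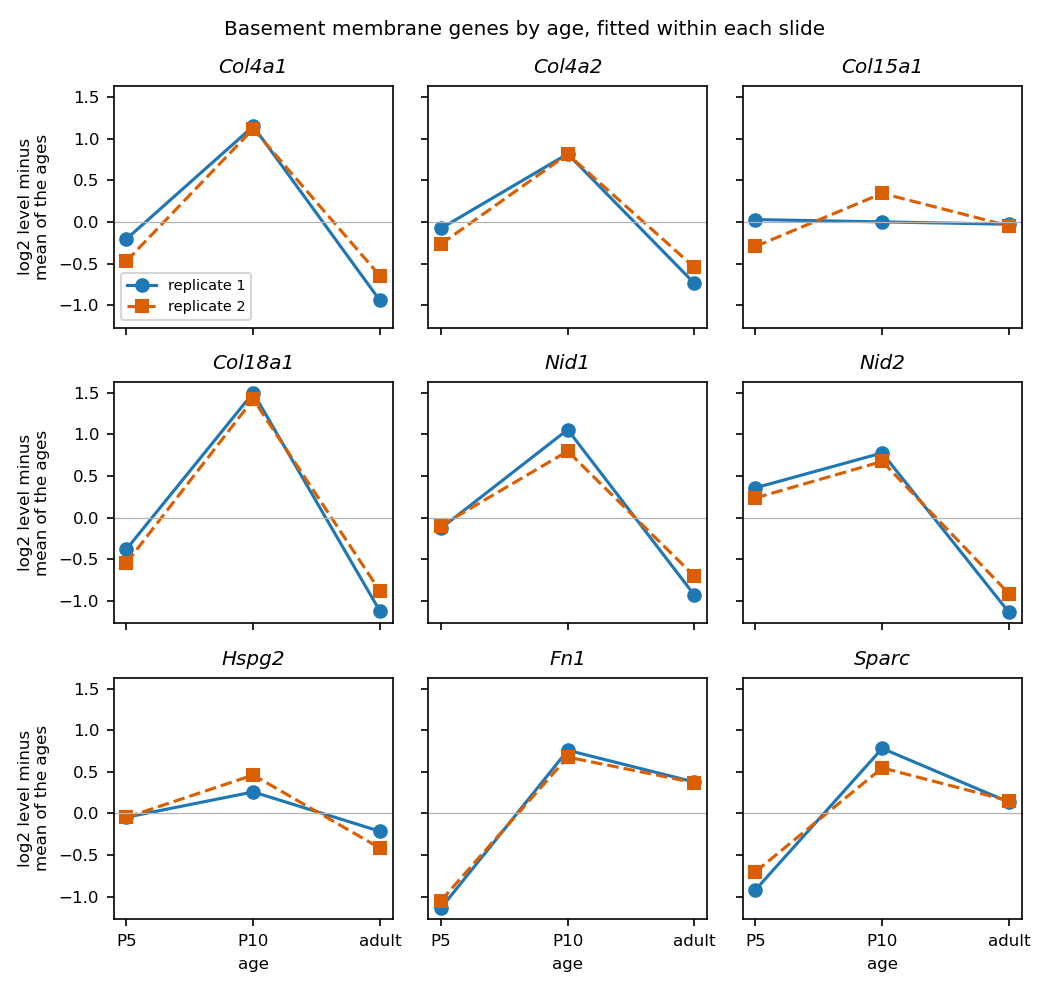
Fitted log2 level of each gene at P5, P10 and adult, relative to the mean of the ages in the same replicate (y axis), with 1 line per replicate. All panels but that of Col15a1 peak at P10 in both replicates. Col18a1 reaches 1.501 and 1.423 at P10, and P5 is lowest for Fn1 and Sparc. The adult falls lowest for the collagens IV and XVIII, the nidogens and perlecan, which under median centring does not hold for Col4a1, Col4a2, Col18a1 and Hspg2.

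The plot of fitted levels by age shows 2 shapes. For Col4a1, Col4a2, Col18a1, Nid1, Nid2 and Hspg2 the adult was the lowest age in both replicates after loess, but under median centring adult minus P5 turned above 0 for Col4a1 (0.225), Col4a2 (0.206), Col18a1 (0.135) and Hspg2 (0.391). For Fn1 and Sparc P5 was the lowest age in both replicates, which for Sparc did not hold without the dye term. P10 lay above P5 and above the adult under all 11 alternatives for each of the 9 genes. Levels here are log2 values from 1 fit per slide, so only differences between ages of the same gene can be read, not the level of one gene against another.

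Type IV collagen, the network-forming collagen of every basement membrane, was measured by 1 probe for each of its main chains. Relative to the mean of the ages, Col4a1 lay at -0.20, 1.15 and -0.94 at P5, P10 and adult in replicate 1, and at -0.47, 1.12 and -0.65 in replicate 2. P10 stood far above both other ages, and on these centred values the adult lay below P5 in both replicates. Channel levels, which are not centred within a replicate, overlapped. They were 13.222 and 12.547 at P5 and 12.506 and 12.576 in the adult. Adult minus P10 was -1.93 ± 0.16 (SE, n = 2), a 3.81-fold lower adult level, with values of -2.09 and -1.77 in the replicates (limma, adjusted p = 0.0043). P10 minus P5 was 1.47 ± 0.16, a 2.77-fold higher P10 level (limma, adjusted p = 0.00639). Adult minus P5 was -0.46 ± 0.16 and did not pass (limma, adjusted p = 0.061). Its 95% interval ran from -0.86 to -0.05, and the difference turned to 0.225 under median centring. On the arrays themselves, adult over P10 was -2.06 and -1.67 with P10 in Cy5 and -1.96 and -1.92 with the dyes exchanged, so the sign did not depend on the dye. The adult over P5 array gave -0.95 in replicate 1 and 0.01 in replicate 2, which is the widest gap between replicates for this gene.

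Col4a2, the partner chain in the type IV collagen trimer, followed the same order of ages, with smaller differences between P10 and either other age. It lay at -0.08, 0.82 and -0.74 at P5, P10 and adult in replicate 1, and at -0.27, 0.81 and -0.55 in replicate 2. No age overlapped another between the replicates. Adult minus P10 was -1.46 ± 0.13 (limma, adjusted p = 0.00476) and P10 minus P5 was 0.99 ± 0.13 (limma, adjusted p = 0.0084; SE, n = 2). Adult minus P5 was -0.47 ± 0.13 and passed the test (limma, adjusted p = 0.0308), but it turned to 0.21 under median centring of the arrays in place of loess (adjusted p = 0.483), and its adjusted p ranged from 0.0292 to 0.483 over 11 alternatives. The P10 minus P5 difference of Col4a1 exceeded that of Col4a2 by 0.46 and 0.51 in the 2 replicates, and the adult minus P10 difference of Col4a1 minus that of Col4a2 was -0.54 and -0.41; these gaps between the chains were not tested.

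The multiplexins, collagens XV and XVIII, are basement membrane collagens that carry heparan or chondroitin sulphate chains, and the C-terminal fragment of collagen XVIII is endostatin. Of the 9 genes, Col18a1 changed most in adult minus P10, in the reported fit and under all 11 alternatives. In P10 minus P5 it also had the highest value in the reported fit, but Fn1 was above it under median centring (2.701 against 2.673 for Col18a1), with the mean of all kept probes (1.81 against 1.698) and in replicate 1 alone (1.895 against 1.878). It lay at -0.378, 1.501 and -1.123 at P5, P10 and adult in replicate 1, and at -0.542, 1.423 and -0.882 in replicate 2. All 3 ages stood apart in both replicates. Adult minus P10 was -2.46 ± 0.13, a 5.52-fold lower adult level (limma, adjusted p = 0.00225), and P10 minus P5 was 1.92 ± 0.13, a 3.79-fold higher P10 level (limma, adjusted p = 0.00417; SE, n = 2). Its P10 value against the mean of the other ages, 2.19 ± 0.12, ranked 8 from the top among all genes. The arrays gave adult over P10 ratios of -2.78 and -2.26, and -2.54 and -2.37 with the dyes exchanged. Adult minus P5 was -0.54 ± 0.13 (limma, adjusted p = 0.0242), and it turned to 0.14 under median centring (adjusted p = 0.66; 0.0145 to 0.66 over 11 alternatives). The second Col18a1 probe moved the same way, with -2.20 for adult minus P10 and 1.47 for P10 minus P5, and was called in both.

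Col15a1 did not pass the test in any comparison. It lay at 0.03, 0.00 and -0.03 at P5, P10 and adult in replicate 1, and at -0.30, 0.34 and -0.05 in replicate 2, so the replicates disagreed on the order of the ages. Its P10 minus P5 difference was 0.30 ± 0.18 with a 95% interval from -0.15 to 0.76 (limma, adjusted p = 0.218; SE, n = 2). Its median spot signals lay between 89 and 235, dim beside the 1259 to 46862 of the Col18a1 probe, which bears on precision and not on the level of one gene against the other. Of 3 Col15a1 probes, 1 was not well above background in enough channels and was left out. The second kept probe was called higher in P10 minus P5, at 0.51 ± 0.12 (limma over probes, adjusted p = 0.0262). That probe was well above background in 0 of 4 P5, 6 of 6 P10 and 4 of 6 adult channels. It was kept through P10 alone, so its call is not support for a rise of Col15a1 at P10.

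The nidogens, rod-shaped glycoproteins that bridge laminin and type IV collagen, were both far lower in the adult than at P10. Nid1 lay at -0.13, 1.06 and -0.93 at P5, P10 and adult in replicate 1, and at -0.10, 0.80 and -0.70 in replicate 2. Each age stood apart. Adult minus P10 was -1.75 ± 0.15, a 3.35-fold lower level (limma, adjusted p = 0.00445), P10 minus P5 was 1.04 ± 0.15 (limma, adjusted p = 0.00989), and adult minus P5 was -0.71 ± 0.15 (limma, adjusted p = 0.0143; SE, n = 2). The adult minus P5 value fell away to -0.05 under median centring (adjusted p = 0.905; 0.00907 to 0.905 over 11 alternatives). It also differed between probes: the 2 dimmer Nid1 probes gave -0.14 and -0.10 and were not called. All 3 probes were called lower in adult minus P10, at -1.75, -1.27 and -0.72, and higher in P10 minus P5, at 1.04, 1.13 and 0.62.

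Nid2 stayed closer to its P10 level at P5 than Nid1 did. It lay at 0.36, 0.78 and -1.14 at P5, P10 and adult in replicate 1, and at 0.24, 0.68 and -0.91 in replicate 2. The adult was far below both postnatal ages. Adult minus P5 was -1.32 ± 0.13, a 2.5-fold lower level (limma, adjusted p = 0.00205), and adult minus P10 was -1.75 ± 0.13 (limma, adjusted p = 0.00337; SE, n = 2). P10 minus P5 was 0.43 ± 0.13 and missed the threshold (limma, adjusted p = 0.0502), although the replicates gave 0.42 and 0.44. The adult minus P5 fall of Nid2 passed under all 11 alternatives, and ranged from -1.57 to -0.76. Nid1 exceeded Nid2 in P10 minus P5 by 0.77 and 0.46 in the 2 replicates and in adult minus P5 by 0.69 and 0.54; these gaps were not tested.

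Perlecan, coded by Hspg2, had the smallest difference of the genes called in adult minus P10. It lay at -0.04, 0.26 and -0.21 at P5, P10 and adult in replicate 1, and at -0.05, 0.46 and -0.42 in replicate 2. P10 was highest and the adult lowest in both. Adult minus P10 was -0.68 ± 0.13 (limma, adjusted p = 0.0307), P10 minus P5 was 0.41 ± 0.13 (limma, adjusted p = 0.0607) and adult minus P5 was -0.27 ± 0.13 (limma, adjusted p = 0.14; SE, n = 2). The adult minus P10 call was kept in 6 of 11 alternatives, with adjusted p from 0.0307 to 0.239. The second, dimmer Hspg2 probe was not called in adult minus P10, at -0.20, and gave 0.32 for adult minus P5, opposite in sign to the first probe; the mean of both gave 0.026.

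Fibronectin, a glycoprotein bound by integrins such as alpha 5 beta 1, was higher at both later ages than at P5. Fn1 lay at -1.14, 0.76 and 0.38 at P5, P10 and adult in replicate 1, and at -1.05, 0.68 and 0.37 in replicate 2. P5 stood far below both later ages, with close replicates. Adult minus P5 was 1.47 ± 0.10, a 2.76-fold higher adult level (limma, adjusted p = 0.00101), and P10 minus P5 was 1.81 ± 0.10, a 3.51-fold higher P10 level (limma, adjusted p = 0.00399; SE, n = 2). Adult minus P10 was -0.34 ± 0.10 and did not pass (limma, adjusted p = 0.0828), with a 95% interval from -0.60 to -0.08. The adult minus P5 rise passed under all 11 alternatives, between 1.17 and 2.13. Against Col4a1, adult minus P10 of Fn1 was higher by 1.71 and 1.46 in the 2 replicates.

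Sparc was measured by 2 probes that differ in how far the dye enters. The brighter probe, which stands for the gene by the rule of highest mean intensity, gave adult over P10 ratios of -1.88 and -1.14 with P10 in Cy5, but 0.43 and 0.38 with the dyes exchanged. The sign of its ratio thus turned with the dye, and the fitted values of this probe that involve P5 rest on the dye term. With that term, P10 minus P5 was 1.47 ± 0.14 (limma, adjusted p = 0.00533), adult minus P5 was 0.95 ± 0.14 (limma, adjusted p = 0.00556) and adult minus P10 was -0.52 ± 0.14 (limma, adjusted p = 0.0647; SE, n = 2). Without the dye term adult minus P5 was -0.003 and P10 minus P5 was 0.518 (adjusted p = 0.0189), while adult minus P10 was again -0.52 and then called (adjusted p = 0.0344; 0.0224 to 0.448 over 11 alternatives). On channel levels with the replicate block adult minus P5 was -0.246 and P10 minus P5 was 0.377, no longer called (adjusted p = 0.0674; 0.00399 to 0.101 over 11 alternatives). P10 against the mean of the other ages was 0.501 on channel levels, also not called (adjusted p = 0.0519; 0.0134 to 0.212 over 11 alternatives). The dimmer probe gave adult over P10 ratios of -0.77 and -0.75 with P10 in Cy5, and -0.72 and -0.67 with the dyes exchanged, so its sign did not turn. By that probe P10 minus P5 was 1.17 ± 0.09 (limma over probes, adjusted p = 0.00388), adult minus P10 was -0.71 ± 0.09 (adjusted p = 0.0115) and adult minus P5 was 0.46 ± 0.09 (adjusted p = 0.0137). With the dye term, both probes put Sparc highest at P10 and lowest at P5.

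**Figure D2:**
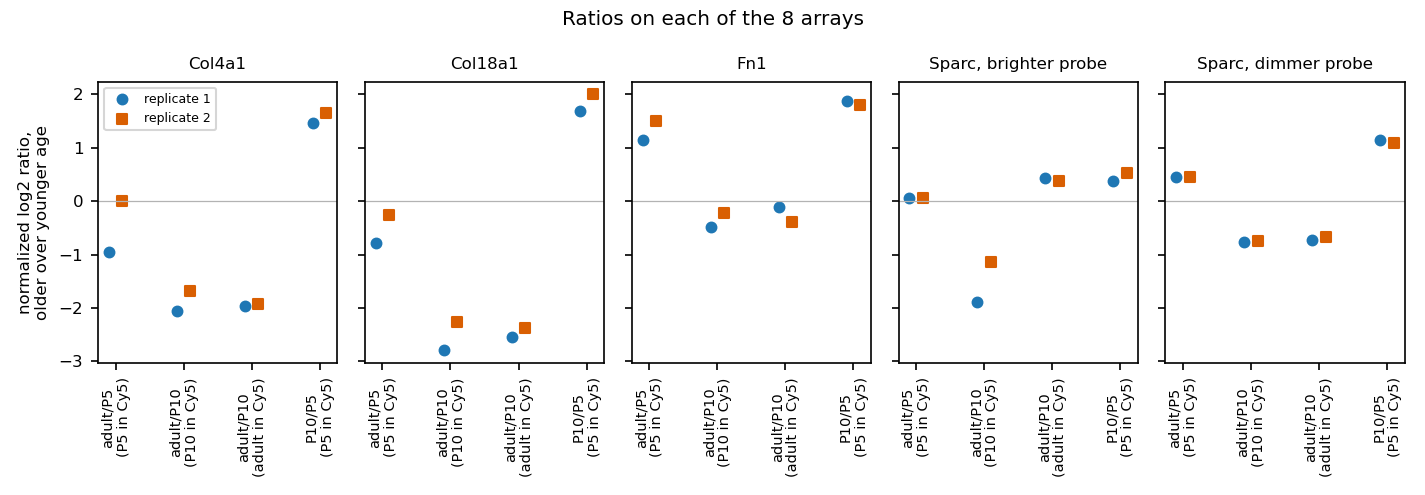
Normalized log2 ratio, older over younger age (y axis), on each of the 8 arrays (x axis, array type with the age in Cy5) for Col4a1, Col18a1, Fn1 and both Sparc probes, circles for replicate 1 and squares for replicate 2. Col4a1 and Col18a1 keep their adult over P10 ratio when the dyes are exchanged, whereas the brighter Sparc probe moves from -1.88 and -1.14 to 0.43 and 0.38.

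Between adult and P5 vessels the direction differed from gene to gene. In adult minus P5, 2 of the 9 genes were higher, Fn1 and Sparc, where 23% of all genes were called higher, and 4 were lower, Col4a2, Col18a1, Nid1 and Nid2, where 30.1% of all genes were called lower; Col4a1, Col15a1 and Hspg2 were not called. The median of the 9 was -0.46, against -0.09 for all genes. Under median centring the lower calls shrank to 1, Nid2, with 2 higher, and the median of all genes moved to 0.07. The share of higher calls among all genes called in this comparison was 43.4%, and 53.4% under median centring. By probes, 13 of 15 kept were higher in P10 minus P5 and 0 lower, where 18.7% of all probes were called higher and 21.4% lower, and 10 of 15 were lower in adult minus P10 and 0 higher, where 8.14% of all probes were called lower and 9.04% higher. Probes of 1 gene share a target. The 13 include the Nid2 probe, called at an adjusted p of 0.0492 by limma over probes, against 0.0502 over genes. They also include the second kept Col15a1 probe, which was kept through P10 alone.

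**Figure D3:**
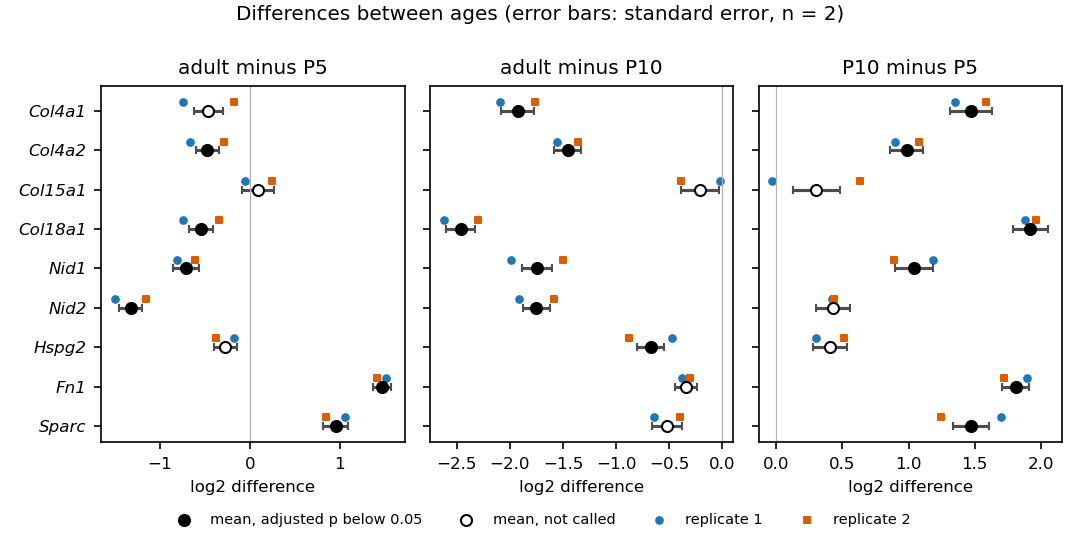
Log2 difference of each gene (rows) for adult minus P5, adult minus P10 and P10 minus P5 (panels), with filled circles for genes called by limma, open circles for those not called, error bars of 1 standard error (n = 2) and small marks for the replicates. In adult minus P10 all 9 genes lie below 0, from -2.46 for Col18a1 to -0.21 for Col15a1, and in P10 minus P5 all lie above 0, from 0.30 to 1.92.

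The background correction bears on many of these calls. When the correction was fitted with 11 spots whose recorded background lay far above their signal, on 2 arrays, 0 of 21939 genes passed in P10 minus P5 with limma (7066 had an unadjusted p under 0.05), and the 6 called genes had values between 1.003 and 1.98 with adjusted p between 0.0534 and 0.0927. In P10 against the mean of P5 and adult, that fit also called 0 of 21939 genes. The 8 genes called there in the reported fit kept their direction, with values between 0.556 and 2.222 (limma, adjusted p between 0.135 and 0.273). In adult minus P10, Col4a1, Col18a1, Nid1 and Nid2 passed under all 11 alternatives.

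Markers of the vascular cell types are given beside the levels of these genes. Marker counts in this paragraph and the next are to be read against the shares over all genes. These were 23% higher and 30.1% lower in adult minus P5, and 18.2% and 23% in P10 minus P5. They were 9.1% and 8.42% in adult minus P10, and 6.16% and 5.53% in P10 against the mean of P5 and adult. Endothelial markers were higher in the adult than at P5 for 13 of 13 genes, with a median log2 difference of 1.71, and higher at P10 than at P5 for 13 of 13, with a median of 1.26; in adult minus P10 5 were higher and 0 lower, with a median of 0.45, and in P10 against the mean of P5 and adult 5 were higher and 1 lower, with a median of 0.38. Their summed level on a linear scale was 95600 and 76200 at P5, 228000 and 193000 at P10, and 604000 and 494000 in the adult. Set against the endothelial median of the same replicate, Col4a1 lay at -2.50 and -2.23 in adult minus P10, and at 0.10 and 0.25 in P10 minus P5. The other members also lay below that median in adult minus P10 in both replicates. In P10 minus P5, Col4a2, Col15a1, Nid1, Nid2 and Hspg2 lay below it in both replicates, and Col18a1 and Fn1 above it in both. Sparc lay at 0.445 in replicate 1 and -0.091 in replicate 2. Pericyte markers were higher at P10 than at P5 for 9 of 10 genes measured, with a median of 1.02, and in adult minus P10 3 were higher and 0 lower. Smooth muscle markers were higher at P10 than at P5 for 5 of 7 genes, with a median of 1.78, and in P10 against the mean of P5 and adult 3 were higher and 0 lower, with a median of 0.84. Their summed level was 18600 and 15800 at P5, 64600 and 94900 at P10, and 76700 and 87700 in the adult.

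Fibroblast markers moved partly with the basement membrane genes. Of 10 fibroblast markers measured of 11 listed, 6 were lower and 0 higher in adult minus P10, with a median of -0.84, and 5 were higher in P10 minus P5. Their summed level was 52200 and 37500 at P5, 76200 and 66600 at P10, and 32600 and 31800 in the adult. None of the 10 lacked signal at any age, and Dpt was on the array but had no probe kept for the fit. In P10 against the mean of P5 and adult, 5 of the 10 were higher and 0 lower. The fibrillar collagen genes Col1a1, Col1a2 and Col3a1, which are among the 10, were higher there by 1.52, 1.44 and 1.91. Dcn and Pdgfra were not called in that comparison, at -0.08 and 0.08. In adult minus P5, 2 of the 10 were higher, which is near the 23% of all genes. In the same comparison 6 were lower, where 30.1% of all genes were, and the median was -1.10. Markers of dividing cells were lower in the adult than at P10 for 5 of 5 genes, with a median of -3.28. Among the other cell groups, erythroid and immature neuron markers were highest at P5. The summed levels of oligodendrocyte, astrocyte and mature neuron markers were highest in the adult. For oligodendrocytes they were 5090 and 7450 at P5 and 54100 and 55000 in the adult. Microglia and macrophage markers were highest at P10 in replicate 1 and at P5 in replicate 2. Erythroid markers were lower at P10 than at P5 for 7 of 7 genes, with a median of -2.54. Their summed level was 2220000 and 1950000 at P5, 483000 and 620000 at P10, and 146000 and 130000 in the adult. Immature neuron markers were lower at P10 than at P5 for 5 of 5 genes, with a median of -1.725. The part of these cell groups in the results above, including the rises from P5, was not tested.

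The counts for the lists that follow are to be read against the shares over all genes: 18.2% higher and 23% lower in P10 minus P5, 9.1% higher and 8.42% lower in adult minus P10, and 23% higher and 30.1% lower in adult minus P5. Other type IV collagen chains followed Col4a1 in part. Col4a5 was lower in adult minus P10, at -1.33 ± 0.12 (limma, adjusted p = 0.00529) and higher in P10 minus P5, at 0.65 ± 0.12 (limma, adjusted p = 0.0171; SE, n = 2). Col4a6 was lower in adult minus P10, at -1.14 ± 0.16 (limma, adjusted p = 0.0138). Col4a3 was on the array but had no probe kept for the fit, and Col4a4 was not called in any comparison.

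Laminin chains split between those that fell with the type IV collagens and those that did not. In adult minus P10, 4 of 11 were lower and 0 higher; in P10 minus P5, 8 of 11 were higher and 0 lower; in adult minus P5, 5 were higher and 3 lower. Lamb1, Lama1 and Lama4 were lower in adult minus P10, at -2.12, -1.95 and -1.43. Lama5, the alpha chain of a main endothelial laminin, and Lamb2, a beta chain, were higher in adult minus P5, at 1.52 and 1.16. Lama1 was 1.20 ± 0.19 higher at P10 than at P5 (limma, adjusted p = 0.0122).

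Of 15 other basement membrane components, 9 were higher and 1 lower in P10 minus P5, and 5 were higher and 7 lower in adult minus P10. Tinagl1, a matricellular protein, Ntn4, a netrin that binds laminin, and Sparcl1, a relative of SPARC, were higher in adult minus P10 by 1.17, 0.94 and 0.86. Fbln1 and Fbln2, fibulins that bind matrix proteins, were lower, at -1.49 and -1.69. Fbln2 was also the highest of the list in P10 minus P5, at 2.13 ± 0.14 (limma, adjusted p = 0.00399).

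Of 15 matrix receptors, 8 were higher and 1 lower in P10 minus P5, where 18.2% and 23% of all genes were. In adult minus P10, 2 were higher and 2 lower, which is near the 9.1% and 8.42% of all genes. Itga5, the alpha chain of the fibronectin receptor, was higher at P10 than at P5 by 1.25 and lower in adult minus P10, at -1.28. Itga6, a laminin receptor chain, and Bcam, a receptor for laminin alpha 5, were higher in adult minus P10 by 1.39 and 0.76. Itgb1, the common beta chain, was lower, at -0.74.

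Among 26 measured genes for collagen modification, export and crosslinking, 10 were higher and 2 lower in P10 minus P5, where 18.2% and 23% of all genes were. In adult minus P10, 3 were higher, which is near the 9.1% of all genes, and 8 were lower, where 8.42% of all genes were. Fkbp10, a collagen chaperone, Pxdn, the peroxidase that crosslinks type IV collagen, and Loxl2, a lysyl oxidase, were lower in adult minus P10, at -2.58, -2.09 and -1.82. P4ha1 and P4ha2, prolyl hydroxylase subunits, were higher by 1.39 and 1.23. Matrix proteases and their inhibitors gave 10 of 20 higher and 1 lower in P10 minus P5, and 3 higher and 7 lower in adult minus P10. Timp1, an inhibitor, Adamts9, a protease, and Mmp14, a membrane protease, were lower in adult minus P10, at -2.46, -2.03 and -1.79, whereas Timp3, Reck and Adamts1 were higher by 1.04, 0.94 and 0.89.

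**Figure D4:**
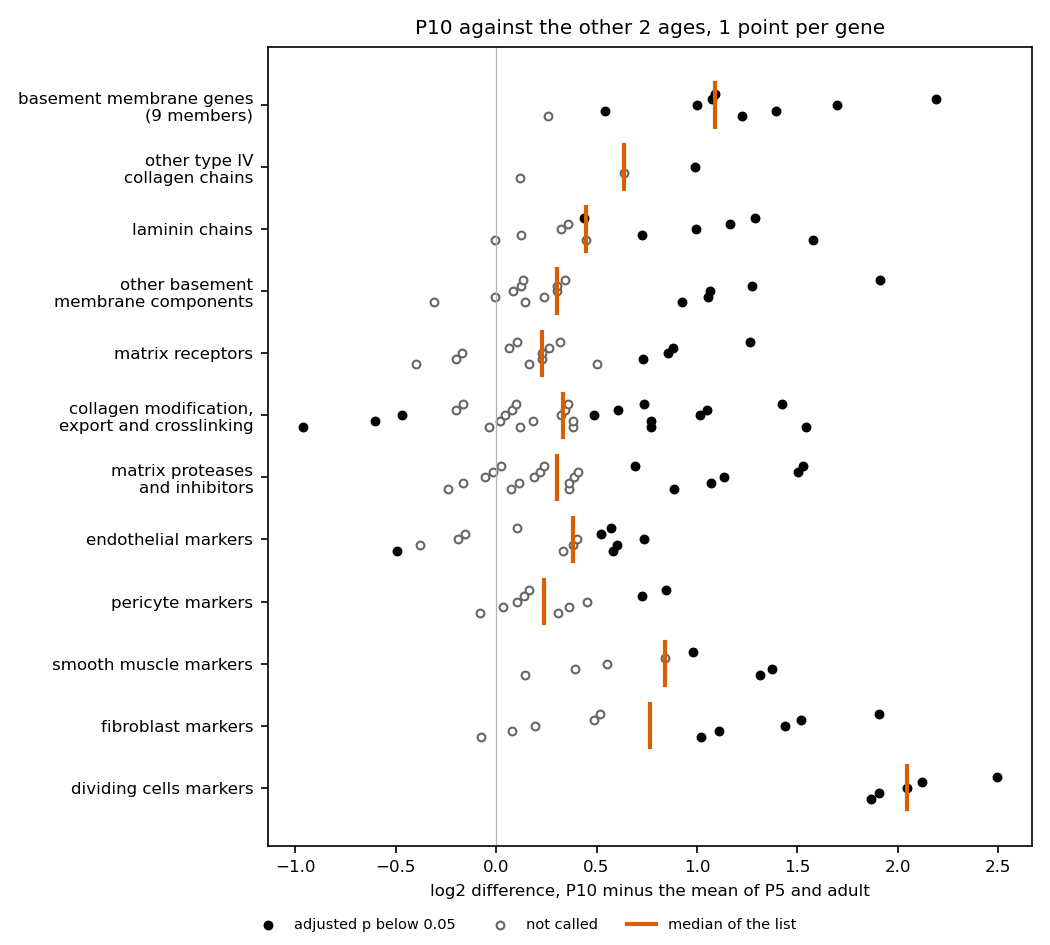
Log2 difference between P10 and the mean of P5 and adult (x axis) for each gene of each list (rows, 1 point per gene), with filled points for genes called by limma and a bar for the list's median. The median of the 9 basement membrane genes is 1.09, against 0.45 for laminin chains, 0.38 for endothelial markers, 0.84 for smooth muscle markers, 0.77 for fibroblast markers and 2.05 for dividing cell markers.

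The genes whose ratios over the 8 arrays came nearest to each basement membrane gene were found by Euclidean distance after removal of the dye term, and the nearest 3 that were matched to a gene symbol are named; features not matched to one were passed over, as happened for Nid2, Sparc and Col15a1. The 8 arrays reuse the same 3 ages in 2 replicates and are not independent, so the values describe these arrays and carry no p. For Col4a1 they were Lama1, a laminin chain (distance 0.72, Pearson r 0.99), Igfbp1 (0.83, r 0.99) and Loxl2 (0.88, r 0.998). Nid1 ranked 4 in nearness to Col4a1 and Col4a2 ranked 19, of 21638 genes, whereas Col4a1 ranked 134 in nearness to Col4a2. For Col4a2 they were Serpinf1 (distance 0.34), Lama4 (0.38) and Rab38 (0.40). For Col18a1 they were Igfbp1 (0.90), Adamts16 (1.06) and Ppic (1.18), and Col4a1 ranked 5. For Nid1 they were Loxl2 (0.43), Mad2l1 (0.47) and Mcm2 (0.48), and the last pair are genes of the cell division cycle. For Nid2 the nearest with a symbol were Rbm3 (0.42), Kntc1 (0.46) and Itga11 (0.47), at ranks 1, 4 and 5 among all genes. For Fn1 they were Ctsh (0.57), Smim3 (0.62) and Ret (0.65), and Sparc ranked 48, whereas Col4a1 ranked 15302. Hspg2 came nearest to the RIKEN transcripts 9630013A20Rik (0.35) and 4930412O13Rik (0.43) and to Pdlim7 (0.44). For Sparc, by the brighter probe, the nearest with a symbol were Ces2e (0.32), Rflnb (0.37) and Icam1 (0.52), at ranks 2, 4 and 5. For Col15a1, which is dim, they were Zfhx3 (0.23), Olfr1508 (0.28) and Pgghg (0.37), at ranks 1, 2 and 4.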

How the data were processed

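RNA of 2 ages was hybridised per array, and the age and dye of each channel were taken from the labels. Per the file headers, the deposited spot, local background and processed signals are linear intensity values, and the log ratio in each deposited file is a log10 value, Cy5 over Cy3. The headers give Feature Extraction 10.5.1.1, and the submitters' processing notes name 12.6.

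In R 4.3.3 with limma 3.58.1, median signals were background-corrected (normexp, offset 50) and normalized within each array by loess (span 0.3) that gave no weight to controls and outliers. A total of 11 spots with signal more than 100 below their background, on 2 arrays, were given the array's median background and then left out, a step chosen in an earlier analysis after results were seen. A probe was kept if, for at least 1 age, all channels were well above background. A gene is its kept probe of highest mean intensity. The 4 ratios of a slide were fitted with 2 age differences and a dye term, and limma then fitted age and replicate (2 residual and 2.91 prior degrees of freedom). P-values were adjusted by Benjamini-Hochberg over 21939 genes or, for probes, 27107 probes. Slide equals replicate, so replicate values are within-batch values. Same-numbered samples correlated at 0.45, 0.47 and 0.69 in their deviations from the age means. They share a slide, so an effect of the slide and one of a shared preparation cannot be told apart. Accessions were named through RefSeq (GRCm38.p6): 27427 of 39429 probes matched a symbol; the probe design names another build, so no probe coordinates are given. Members, lists and tests were chosen with earlier results of these data known. All 9 genes and their probes are named, with up to 3 called genes at either end of each pathway list and, for each member, the 3 nearest genes matched to a symbol. The fit was tested on simulated data.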

Additional observations from a re-analysis of the deposited data

How the results depend on the processing

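The 9 genes in 4 comparisons gave 36 values, each recomputed under 11 alternatives with a test. Of these 396 recomputed values, 335 kept their direction and side of the threshold, 41 lost the call, 11 gained one and 9 reversed. No background correction and leaving out saturated spots changed none of the 36 calls. The reversals were all in adult minus P5: Col4a1 to 0.225, Col4a2 to 0.206, Col18a1 to 0.135, Hspg2 to 0.391 and Col15a1 to -0.06 under median centring, Hspg2 to 0.026 as the mean of its probes, and Sparc to -0.003 without the dye term and to -0.246 on channel levels, with or without the replicate block. On channel levels with the replicate block, Sparc alone among the genes higher in adult minus P5 was lost (1 higher), as it was with no replicate block (1) and without the dye term (1). The replicate block is part of the reported fit.

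Background correction fitted on all spots left 1 member higher and 2 lower in adult minus P5, 0 higher in P10 minus P5 and 0 in P10 against the mean. Over all genes it called 2610 higher and 2768 lower in adult minus P5, 154 and 103 in adult minus P10, and 0 in either direction in the other 2 comparisons. Members lower in adult minus P5 numbered 2 with the deposited log ratio, 1 with median centring and 2 without the 2 arrays that held faulty backgrounds. For all genes, higher and lower calls in adult minus P10 were 613 and 666 with median centring, 1033 and 852 without those arrays, and 973 and 831 with no replicate block. In P10 minus P5 they were 2306 and 3304 without those arrays and 2325 and 2961 with no replicate block. In P10 against the mean they were 884 and 502 with the deposited log ratio, 707 and 199 with median centring, 614 and 503 without those arrays, and 461 and 316 with no replicate block, against 1351 and 1214 as reported. The share of higher calls was 60.1% with median centring in P10 minus P5, against 44.2% as reported, and 78% in P10 against the mean, against 52.7%. Median centring moved the median of all genes in P10 minus P5 to 0.12, against -0.06. The cause of these shifts was not tested.

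Without replicate 2, Col15a1 was at -0.057 in adult minus P5, -0.029 in P10 minus P5 and 0 in P10 against the mean; the other members kept their sign in each replicate. The adult minus P10 call of Hspg2, at -0.68, held in 6 of 11 alternatives. The reported fit has 2 replicates and 2 residual degrees of freedom. The alternatives reprocess the same arrays, so they do not tell how often a difference of this size would pass.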
